A study of Mus musculus with 4 samples.

Results

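The Serpina3 cluster is a run of related serpin genes on mouse chromosome 12. The members are Serpina3c, Serpina3f, Serpina3g, Serpina3h, Serpina3i, Serpina3m and Serpina3n, taken by gene symbol. Of these 7 genes, 6 were read in 8 transcript rows, out of 18674 gene names in 23750 rows, and Serpina3i was not analysed here. The members were picked with results of these data known, and Serpina3h was picked because its value was far lower in G93A + SD than in G93A vehicle. That difference is therefore a description and supports nothing.

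RNA came from the lumbar spinal cord of 4 kinds of mice, with 1 library each. WT vehicle and WT + SD came from wild type mice without the transgene. G93A vehicle and G93A + SD came from mice that carry a mutant human SOD1 transgene and develop progressive motor neuron disease (amyotrophic lateral sclerosis, ALS). SD is spermidine, a natural polyamine, and was given 4 times a week for 30 days, while the methods name PBS for the vehicle mice. The treatment label of the vehicle libraries reads none. The methods give an age of 100 days for all groups. They describe the G93A line as a high expresser bred to B6/SJLF1 mice, so that the animals carry a mixed background of 2 inbred strains, and state that the treatment studies used male mice. The transgene is present in both G93A groups and is not restricted to motor neurons. The number of animals behind a library was not stated. With 1 library per condition there is no replicate check, conditions could not be tested against each other, and p-values are absent.

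Serpins are protease inhibitors that offer an exposed reactive centre loop as bait and trap the protease that cleaves it. The mouse cluster arose by repeated duplication of a gene for which humans have a single counterpart, SERPINA3, which encodes alpha-1-antichymotrypsin. The copies differ most in the stretch that encodes the loop, so that they are thought to meet different proteases. Serpina3n is a secreted acute phase protein and a widely used marker of reactive astrocytes. Serpina3g lacks a secretion signal and inhibits lysosomal cathepsins inside immune cells.

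The levels below are in RPKM (reads scaled to transcript length in kilobases and to library size, a unit inferred from the values), and a gene was called higher or lower where 1 of its rows differed at least 1.5-fold after a pseudocount of 0.1 RPKM had been added. For genes of the lists below, the rows of a name were averaged before the call. The shares of all names beside them count any row, so that the rules are not quite alike. Estimated depth was similar, between 36.8 M and 38.6 M read pairs per library. The labelled tissue was checked on marker lists. The sum of 5 oligodendrocyte genes was 8552 RPKM for WT vehicle, 8852 for WT + SD, 6981 for G93A vehicle and 6428 for G93A + SD. That of 6 astrocyte genes was 1273, 1182, 1561 and 1622 RPKM in the same order. The sum of 5 neuronal genes was 2166 RPKM for WT vehicle, 2138 for WT + SD, 1260 for G93A vehicle and 976 for G93A + SD. The summed level of 9 microglial genes was 87.7 RPKM in WT vehicle and 79.7 RPKM in WT + SD, against 471 RPKM in G93A vehicle and 470.5 RPKM in G93A + SD, so that the labels of genotype and the microglial levels went together. A list of 8 liver genes, added because several clade A serpins are liver proteins, summed to between 0.534 and 2.31 RPKM, with Alb, Fga, Fgg and Ahsg below 0.1 RPKM in every library.

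First, Serpina3n was by far the most abundant member. Its level was 27.8 RPKM for WT vehicle, 24.5 for WT + SD, 473 for G93A vehicle and 772 for G93A + SD. Both G93A libraries were thus far above both WT libraries, and the G93A + SD library was the highest. The difference was 17.0-fold under vehicle and 31.5-fold under SD, and it was 1.63-fold between the G93A libraries. On the log2 scale with the pseudocount these differences were 4.08, 4.97 and 0.71. Only 49 of the 23750 rows had a larger log2 difference between genotypes under vehicle, and 32 under SD. Between the G93A libraries, 402 rows had a higher log2 difference. In WT mice the value was slightly lower with SD, at a log2 difference of -0.18. Among all rows, Serpina3n ranked 2667th in WT vehicle and 3159th in WT + SD, but 51st in G93A vehicle and 25th in G93A + SD. Between 1937 and 61531 estimated read pairs stood behind these values, so that read sampling gives them little error. The neuronal and oligodendrocyte sums were lower and the microglial and astrocyte sums higher in the G93A libraries. Their part in the level of Serpina3n was not tested. In bulk tissue, more cells of a type and more RNA per cell cannot be told apart.

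**Figure D1:**
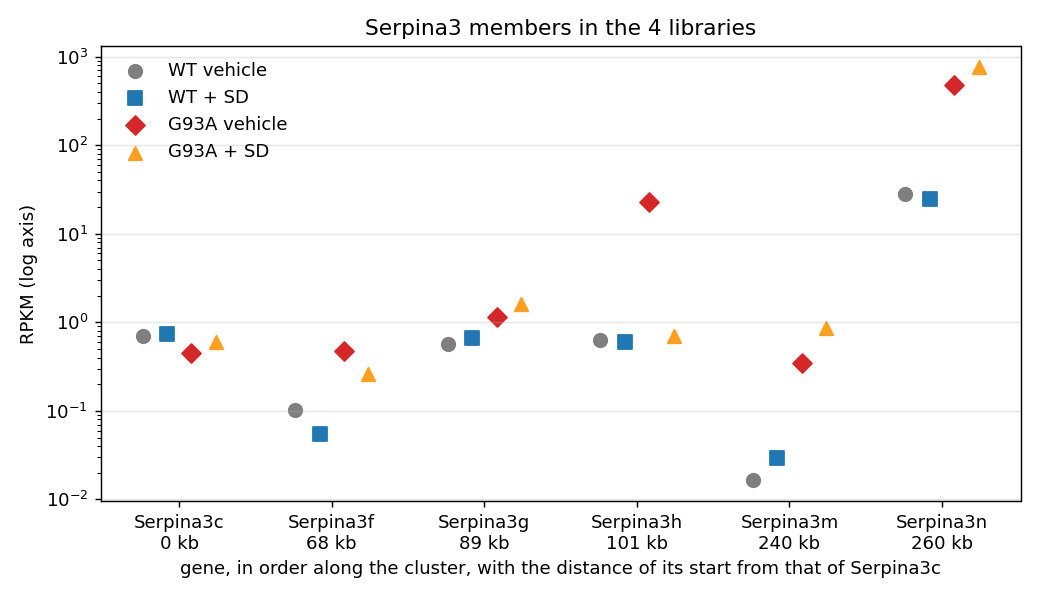
Level of each measured Serpina3 member in the 4 libraries, in RPKM on a log axis, with 1 point per library and the genes ordered by position along the cluster. Serpina3n lies above all other members in every library, while Serpina3h has a single high point of 22.7 RPKM in G93A vehicle and lies between 0.595 and 0.707 RPKM in the other libraries.

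Serpina3n carried nearly all of the RNA of the cluster. Its share of the summed RPKM of the 6 members was 93.2% for WT vehicle, 92.1% for WT + SD, 94.9% for G93A vehicle and 99.5% for G93A + SD. The sum itself was 29.9 RPKM in WT vehicle and 26.6 RPKM in WT + SD, and it reached 498 RPKM in G93A vehicle and 776 RPKM in G93A + SD. The sum therefore followed Serpina3n. Without Serpina3n the sum was 2.02, 2.10, 25.2 and 4.06 RPKM in WT vehicle, WT + SD, G93A vehicle and lastly G93A + SD. The rest of the cluster was thus highest in G93A vehicle, where 90.3% of it was Serpina3h. Between the G93A libraries the log2 difference was 0.64 for the whole sum and -2.60 for the sum without Serpina3n. The latter is set by Serpina3h, which was chosen for that difference. Without both genes the remaining sum was 1.383 RPKM for WT vehicle, 1.504 for WT + SD, 2.43 for G93A vehicle and 3.35 for G93A + SD, so that the other members together were highest in G93A + SD.

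Serpina3h, annotated as a transcribed pseudogene, was high in G93A vehicle alone. Its level was 0.635 RPKM for WT vehicle, 0.595 for WT + SD, 22.7 for G93A vehicle and 0.707 for G93A + SD. The other libraries lay close together, and G93A vehicle was 35.8-fold above WT vehicle and 32.1-fold above G93A + SD. The log2 difference was 4.96 in G93A vehicle against WT vehicle, but only 0.22 in G93A + SD against WT + SD. It was -4.82 in G93A + SD against G93A vehicle, and 1 other row of the 23750 had a lower log2 difference. The high value corresponds to an estimate of 1071 read pairs, against 29.0, 28.2 and 33.8 pairs in WT vehicle, WT + SD and G93A + SD. These estimates use an annotated transcript of 1239 bases, because no annotated transcript was paired with the listed accession. The value in G93A vehicle therefore does not rest on a few reads.

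Serpina3h was the only gene name at least 4-fold above each other library in G93A vehicle (0.00536% of names, with the pseudocount), a threshold chosen after its values were seen. The same count was 1 name for WT vehicle, 2 for WT + SD and 10 for G93A + SD. In the other direction 4 names were at least 4-fold below each other library in G93A vehicle, namely Mir136, Pttg1, Rpl26 and Gm15772, against 5 for WT vehicle, 8 for WT + SD and 2 for G93A + SD. Rpl26, a ribosomal protein gene, had 1.22 RPKM in G93A vehicle and between 7.45 and 13.0 RPKM in the other libraries. Gm15772 had nearly the same values, at 1.25 RPKM and between 7.77 and 13.6 RPKM. Whether both names hold the same reads was not tested, so that they may not count separately. Mir136 was low throughout, at 0 RPKM in G93A vehicle and at most 0.523 RPKM elsewhere. Of 13012 names averaging 1 RPKM or more, the closest in log2 ratios to WT vehicle was H2-Ab1, an MHC class II gene, at a distance of 2.79 over the 3 other libraries. Its level was 0.470 RPKM for WT vehicle, 0.372 for WT + SD, 2.72 for G93A vehicle and 1.03 for G93A + SD. The next were Aldh1a1, Il1r1, Fcer1g and Ang, at distances between 3.10 and 3.15. In G93A + SD against WT + SD they had 73.8 against 44.1, 3.29 against 0.824, 29.2 against 2.07 and 4.285 against 0.784 RPKM. All were thus further above WT + SD there than Serpina3h was. For Serpina3n, the same measure over 8901 names with a mean of at least 5 RPKM gave Fmod, Bcl2a1b, Cyr61, S100a4 and Atf3 at distances between 0.421 and 0.553. The searches used different minimum levels and Serpina3h was chosen for part of its pattern, so that the distances of the 2 searches are not compared.

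**Figure D2:**
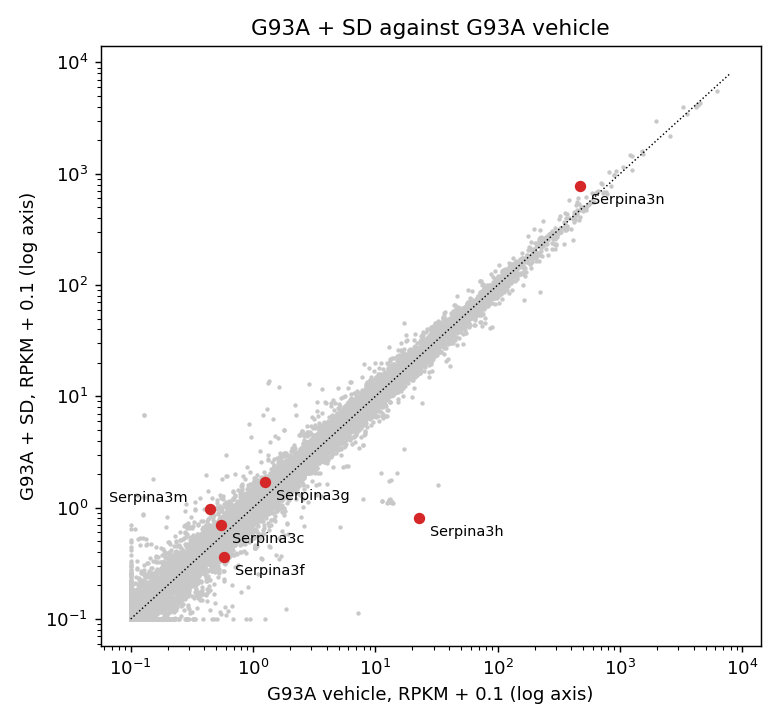
Every transcript row by its level in G93A vehicle (horizontal) and in G93A + SD (vertical), both as RPKM plus 0.1 on log axes, with the Serpina3 members in red and the line of equal values dotted. Serpina3h lies far below the line at 22.7 and 0.707 RPKM, whereas Serpina3n, at 473 and 772 RPKM, lies above it.

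Serpina3h lies on the plus strand of chromosome 12 of GRCm38.p6 in the RefSeq annotation, from 104247896 to 104254405, between Serpina3g (104236147 to 104241939) and Serpina3i (104263045 to 104269509). From the start of Serpina3c (104146907 to 104153929, on the minus strand) to the end of Serpina3n (104406646 to 104414334) the cluster spans 267 kb. Serpina3f (104214544 to 104221129) and Serpina3m (104387157 to 104394259) are also on the plus strand, and no other annotated gene overlaps any of the 7 members. The genes within 1 Mb on either side were compared as well, a range chosen after the values were seen. Of these, 9 names that are not clade A serpins had a mean of at least 1 RPKM. Their log2 differences were between -0.43 and 0.43 from WT vehicle to G93A vehicle and between -0.29 and 0.0014 from G93A vehicle to G93A + SD, and none reached 1.5-fold in either comparison. In G93A + SD against WT + SD they were between -0.71 and 0.96, and 3 passed 1.5-fold, and in WT + SD against WT vehicle they were between -0.82 and 0.39, and 1 passed. Among the clade A serpins, which this range leaves out, Serpina3k was also highest in G93A vehicle, at 0.125 RPKM. That level is close to the pseudocount of 0.1 RPKM, and no read pairs were estimated for it.

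Because the copies are related, a read may fit more than 1 of them. To see how far this could go, every stretch of 53 bases, the read length, was compared between the transcripts. Serpina3h shares 181 of its 1187 windows with Serpina3i, 130 with Serpina3g and 76 with Serpina3f. It shares none with Serpina3n, Serpina3m, Serpina3j or Serpina3k. In all, 263 windows (22.2%) occur in another annotated gene and 924 are its own. Serpina3n shares 110 of its 2012 windows (5.47%) with other genes, 48 of them with Serpina3g. Serpina3m shares 239 of 1607 windows with Serpina3k. Aligned transcripts of Serpina3h and Serpina3i are 94.0% identical over 1049 positions, whereas those of Serpina3h and Serpina3n are 84.0% identical over 1147. The annotated transcripts thus share some but not all stretches of read length by exact match. Stretches with a mismatch were not counted, and strain differences in the mixed background of these mice were not examined. None of the shared windows occurs outside the Serpina3 genes. How reads that fit several copies were assigned is not stated. Serpina3i, which shares the most 53-base windows with Serpina3h, was not analysed here, so that reads from it could be among those of Serpina3h. By identity Serpina3g is nearly as close to Serpina3h, at 93.9% over 838 positions.

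**Figure D3:**
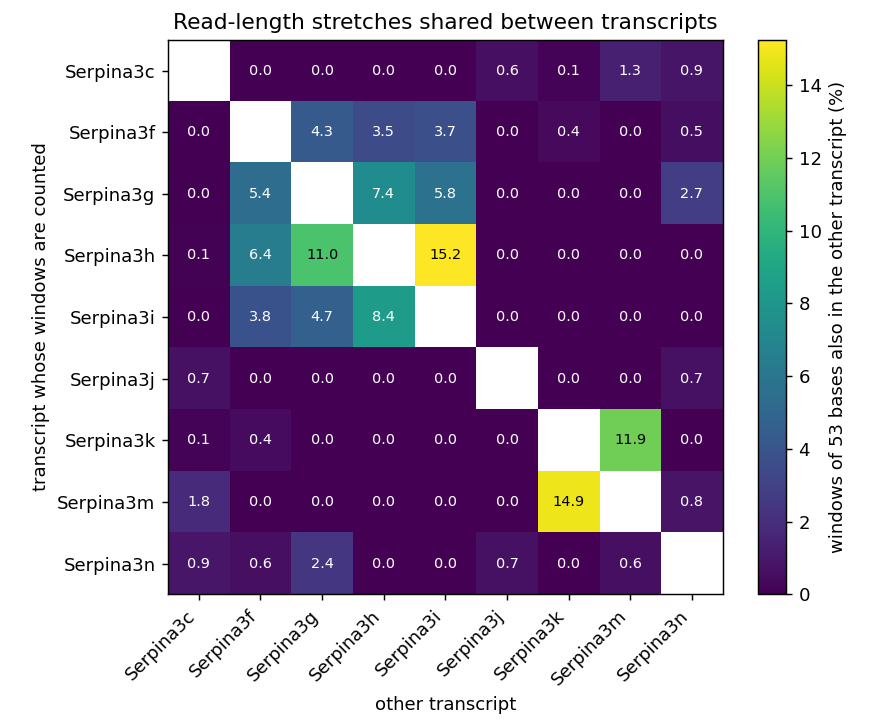
Percent of the 53-base windows of each transcript (vertical) that also occur in another transcript (horizontal), with Serpina3j and Serpina3k included as further copies. Serpina3f, Serpina3g, Serpina3h and Serpina3i share windows with each other, as do Serpina3k and Serpina3m, while Serpina3h and Serpina3n share none.

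The stretch that encodes the reactive centre loop shows where the copies part. It is given here for the 2 members with the highest levels in G93A vehicle, Serpina3n and Serpina3h, and for Serpina3i and Serpina3g, from the annotated transcripts of GENCODE M21 on GRCm38. For Serpina3n it lies at chr12:104413442-104413546 on the plus strand. Serpina3h is read from an annotated transcript of 1226 bases. Capitals mark the bases that differ from Serpina3n or that are not aligned with it.
Serpina3n: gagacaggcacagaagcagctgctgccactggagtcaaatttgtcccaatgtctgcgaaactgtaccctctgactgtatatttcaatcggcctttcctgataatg
Serpina3h: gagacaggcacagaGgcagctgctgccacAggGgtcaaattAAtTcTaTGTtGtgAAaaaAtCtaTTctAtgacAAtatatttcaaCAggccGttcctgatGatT
Serpina3i: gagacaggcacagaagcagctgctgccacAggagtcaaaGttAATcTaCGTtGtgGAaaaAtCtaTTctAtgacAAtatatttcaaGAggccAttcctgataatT
Serpina3g: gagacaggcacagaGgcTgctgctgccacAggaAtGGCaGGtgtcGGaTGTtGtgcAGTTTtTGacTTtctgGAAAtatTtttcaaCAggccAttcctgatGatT

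Over these bases, 25 of Serpina3h, 23 of Serpina3i and 34 of Serpina3g differ from Serpina3n. The first bases, which encode the hinge of the loop, are nearly the same in the 4 copies, and the capitals gather in the part that encodes the bait. As Serpina3h is annotated as a pseudogene, whether its RNA gives a protein was not measured.

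Serpina3g was higher in both G93A libraries. Its level was 0.564 RPKM for WT vehicle, 0.674 for WT + SD, 1.16 for G93A vehicle and 1.62 for G93A + SD. The order was the same as in Serpina3n for the G93A libraries, although the differences were smaller, at 2.06-fold under vehicle and 2.40-fold under SD. The log2 differences were 0.92 and 1.15, and that between the G93A libraries was 0.45, which did not reach 1.5-fold. Between 37.4 and 113 read pairs were estimated behind each value. Serpina3g had its highest value in G93A + SD and its lowest in WT vehicle, and Serpina3h was low in both.

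Serpina3m, which encodes a further inhibitor of the group, also differed between genotypes, at a much lower level. Its level was 0.0164 RPKM for WT vehicle, 0.0296 for WT + SD, 0.349 for G93A vehicle and 0.873 for G93A + SD. The value in WT vehicle corresponds to about 1 estimated read pair and that in WT + SD to 1.88, so that no fold change against them is given. The log2 differences with the pseudocount were 1.95 under vehicle and 2.91 under SD. From G93A vehicle to G93A + SD the estimated pairs went from 22.0 to 55.9, at a log2 difference of 1.12. Serpina3m and Serpina3n, the neighbours at the end of the cluster, were the members whose G93A + SD value passed 1.5-fold above that of G93A vehicle.

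Serpina3f was, besides Serpina3h, the member with its highest value in G93A vehicle. Its 3 rows are not separate measurements, because they stand in a constant ratio to each other in every library and differ only by transcript length, the highest being 1.10 times the lowest. In the row for NM_001033335 its level was 0.103 RPKM for WT vehicle, 0.0552 for WT + SD, 0.478 for G93A vehicle and 0.260 for G93A + SD. Both G93A libraries were above both WT libraries, with the highest value in G93A vehicle. The log2 difference was 1.51 under vehicle, 1.21 under SD and -0.68 between the G93A libraries. The estimate of its read pairs was 8.35 for WT vehicle, 4.66 for WT + SD, 40.1 for G93A vehicle and 22.1 for G93A + SD, so that the difference within G93A rests on few reads. Serpina3f shares 76 of its 2196 windows of 53 bases with Serpina3h.

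In contrast, Serpina3c was not higher in G93A mice. Its level was 0.700 RPKM for WT vehicle, 0.746 for WT + SD, 0.449 for G93A vehicle and 0.603 for G93A + SD. Both G93A libraries were below both WT libraries, and the log2 differences of -0.54 under vehicle and -0.27 under SD stayed within 1.5-fold. Between 37.7 and 63.1 read pairs were estimated behind these values. Without the pseudocount the difference under vehicle was 1.56-fold, which passes the threshold as 10.6% of all names then did. With each library scaled by its median ratio the log2 difference was -0.60, which passes as well.

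**Figure D4:**
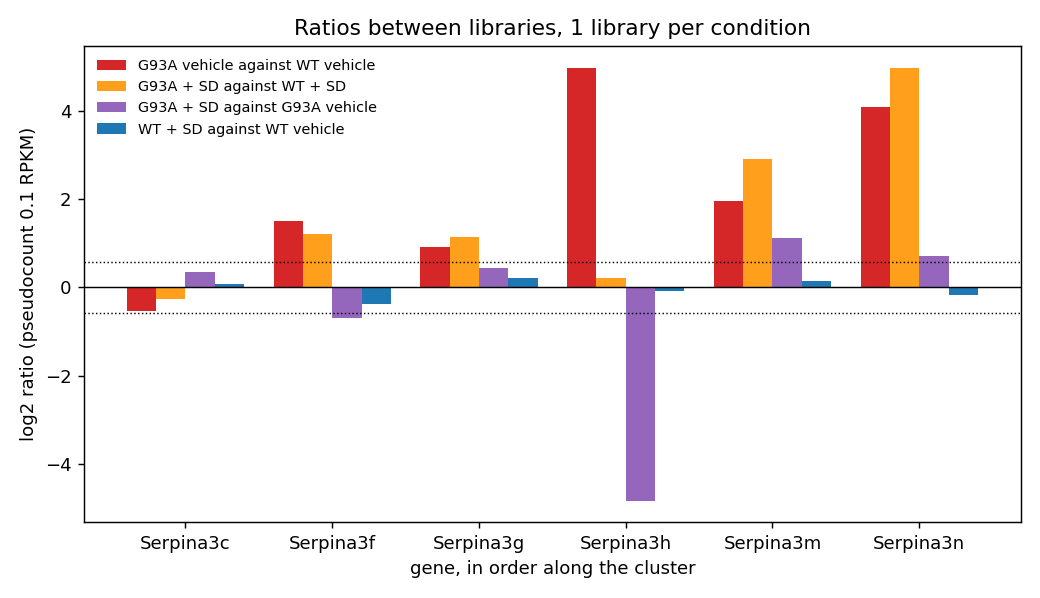
Log2 ratio of each measured member in the 4 comparisons, with a pseudocount of 0.1 RPKM and dotted lines at 1.5-fold (for Serpina3f the row of NM_001033335). The bars of Serpina3h reach 4.96 and -4.82 in the comparisons that use G93A vehicle and stay small in those that do not, whereas Serpina3n is at 4.08 under vehicle and 4.97 under SD.

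When the members were counted, 5 of the 6 measured were above WT vehicle in the G93A vehicle library and none was lower, where 14.6% of all names were higher and 5.52% were lower. The member outside was Serpina3c. Serpina3h is among those higher, and its choice used the same G93A vehicle value. Nothing is therefore read from its call here or at a pseudocount of 1 RPKM, nor from its part in the median under vehicle. With a pseudocount of 1 RPKM only Serpina3h and Serpina3n passed, against 8.44% of names, since the other members lie near or below that value. In G93A + SD against WT + SD, 4 of 6 were higher and none was lower, against 17.3% of names higher and 8.05% lower, and the gene that left the count was Serpina3h. Between the G93A libraries, 2 were higher with SD, against 3.07% of names, and 2 were lower, Serpina3f and Serpina3h, against 2.66% of names. Since Serpina3h was chosen on this difference, nothing is read from that count. In WT mice none of the 6 was called in either direction with SD, against 2.32% of names higher and 2.90% lower. Without the pseudocount Serpina3m was called higher and Serpina3f lower, on fewer than 10 estimated pairs each, where 7.34% of names were higher and 8.76% lower. The median log2 difference of the 6 members was 1.73 for the genotypes under vehicle and 1.18 for the genotypes under SD, where the median over all rows was 0.048 and 0.050. Between the G93A libraries it was 0.40, and between the WT libraries -0.00080. The comparisons share libraries, so that they are not independent of each other.

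The bases upstream of the start were also examined, since Serpina3c and Serpina3n responded so differently. RefSeq windows on GRCm38.p6 were matched for 5 of the 7 members, and the 250 bases before the start are given for Serpina3n (chr12:104406458-104406707, plus strand), Serpina3c (chr12:104153873-104154122, minus strand) and Serpina3g (chr12:104235897-104236146, plus strand). Capitals mark 9 bases whose last 4 letters open a run, agaaatca, that is found in all 5 windows. The starts that RefSeq gives here for Serpina3c, Serpina3i and Serpina3n lie inside the spans given above.
Serpina3n: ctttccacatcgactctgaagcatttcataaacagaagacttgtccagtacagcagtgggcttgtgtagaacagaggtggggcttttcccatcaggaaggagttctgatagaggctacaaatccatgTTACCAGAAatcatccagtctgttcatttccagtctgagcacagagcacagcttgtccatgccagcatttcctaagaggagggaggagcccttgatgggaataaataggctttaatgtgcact
Serpina3c: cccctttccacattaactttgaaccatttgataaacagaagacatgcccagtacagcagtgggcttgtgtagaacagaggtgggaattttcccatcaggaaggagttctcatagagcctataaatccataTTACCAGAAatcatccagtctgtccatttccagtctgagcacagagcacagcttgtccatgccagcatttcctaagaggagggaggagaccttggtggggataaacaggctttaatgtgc
Serpina3g: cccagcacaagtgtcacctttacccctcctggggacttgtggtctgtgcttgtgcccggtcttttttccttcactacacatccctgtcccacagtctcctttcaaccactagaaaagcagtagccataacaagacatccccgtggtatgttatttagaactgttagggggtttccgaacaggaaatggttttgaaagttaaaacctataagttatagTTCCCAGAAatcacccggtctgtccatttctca

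The windows of Serpina3c and Serpina3n are 92.7% identical over 247 aligned positions, although the level of Serpina3n in RPKM was 1054-fold and 1280-fold that of Serpina3c in G93A vehicle and G93A + SD, and 39.8-fold and 32.9-fold in WT vehicle and WT + SD. The motif TTCNNNGAA, the palindrome that STAT factors bind, reads the same on both strands. It occurs once in each of the windows of Serpina3f, Serpina3g and Serpina3i, where the 9 bases are TTCCTAGAA in Serpina3f and TTCCCAGAA in the other two. It does not occur in those of Serpina3c and Serpina3n, where the same place reads TTACCAGAA. Of 32851 windows of this length over all genes, 7.02% hold the motif. A match is a description of these letters and not a site shown to be bound.

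The other clade A serpins were low in these libraries. Of 19 listed, 11 had a row, and 9 of these stayed below 0.1 RPKM in every library, among them the liver genes Serpina1b to Serpina1e. The exceptions were Serpina3k and Serpina9. Serpina3k, known as contrapsin, was listed at 0 in both WT libraries and had 0.125 RPKM in G93A vehicle and 0.0157 RPKM in G93A + SD. Serpina9 had 0.330 RPKM for WT vehicle, 0.180 for WT + SD, 0.107 for G93A vehicle and 0.0604 for G93A + SD, so that it was lower in both G93A libraries. In the list of serpins of other clades, 8 of 17 genes passed 1.5-fold upward from WT vehicle to G93A vehicle and 1 passed downward, with a median log2 difference of 0.48, against 14.6% and 5.52% of all names. Under SD 7 passed upward and 3 downward, with a median of 0.45, against 17.3% and 8.05%. Serpine2, an inhibitor of thrombin and plasminogen activators made by glia, went from 120 to 202 RPKM under vehicle and from 125 to 238 RPKM under SD. Serpini1, the neuronal serpin neuroserpin, went from 44.7 to 29.9 RPKM and from 49.4 to 27.9 RPKM. Serpinb6a, an intracellular inhibitor, went from 32.9 to 41.9 RPKM and from 30.2 to 41.2 RPKM. The level of Serpina3n in G93A mice was thus above that of each of these serpins, although in WT mice it was below them.

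Most genes of the STAT3 and acute phase list were also higher in G93A mice. Serpina3n is a target of STAT3, the factor that relays signals of the interleukin-6 family. In the list of 20 STAT3 and acute phase genes, 17 passed 1.5-fold upward from WT vehicle to G93A vehicle and none was lower, with a median log2 difference of 1.78, where 14.6% of all names were higher and 5.52% lower. Under SD 18 were higher, with a median of 1.87, where 17.3% of names were higher. Stat3 itself went from 17.8 to 34.5 RPKM under vehicle and from 17.6 to 37.4 RPKM under SD. Il6st, the shared receptor subunit of that family, went from 30.2 to 43.0 RPKM and from 29.95 to 48.7 RPKM, at log2 differences of 0.51, which is within 1.5-fold, and 0.70. Jak2, the kinase that activates STAT factors, and Lifr, a receptor subunit of the same family, passed in neither comparison, with 0.19 and 0.24 for Jak2 and -0.34 and -0.47 for Lifr. The immediate early gene Fos went from 5.78 to 23.4 RPKM and from 8.37 to 30.3 RPKM. Between the G93A libraries, 1 of the 20 genes was called higher and none lower, near the 3.07% of all names called higher, with a median of 0.17, where Serpina3n differed by 0.71.

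The list of 18 reactive astrocyte genes, which does not hold Serpina3n, was higher in both G93A libraries in all 18 genes, against 14.6% of names under vehicle and 17.3% under SD. Its median log2 difference was 2.82 under vehicle and 3.57 under SD, against 4.08 and 4.97 for Serpina3n. In G93A + SD, 8 of the 18 were higher than in G93A vehicle, none was lower, and 17 had their highest value in that library, where 3.07% of names were higher and 2.66% lower than in G93A vehicle. Gfap, the intermediate filament of astrocytes, had 441, 386, 2269 and 2707 RPKM in WT vehicle, WT + SD, G93A vehicle and lastly G93A + SD. Vim, another intermediate filament, had 29.8, 27.8, 379 and 586 RPKM, and C3, the central complement component, had 38.5, 12.4, 175 and 277 RPKM. Of the list, Lcn2 and Osmr are also among the STAT3 genes, Gbp2 and Cxcl10 among the interferon genes and Serping1 among the other serpins. The summed level of the list was 539, 452, 3060 and 3904 RPKM in the same order, and most of it was Gfap. Serpina3n had the same order of libraries as this sum. Timp1, Cd44, Cd109, Ptx3 and Serping1 differed from it in being higher in WT + SD than in WT vehicle, and Lcn2 in being highest in G93A vehicle. The part of astrocyte number or state in the level of Serpina3n was not tested.

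Serpina3g is known as a gene induced by interferon gamma. In the list of 24 interferon gamma response genes, 18 were higher in G93A vehicle and 19 in G93A + SD than in the WT library with the same treatment, and none was lower, against 14.6% and 17.3% of names higher. The median log2 difference was 1.20 under vehicle and 1.44 under SD, beside 0.92 and 1.15 for Serpina3g. In WT mice with SD, 6 of the 24 genes were lower, 0 were higher and the median was -0.30, against 2.90% of names lower and 2.32% higher. Serpina3g was at 0.22 there, which is within 1.5-fold. B2m, the light chain of MHC class I, went from 80.0 to 236 RPKM under vehicle and from 60.8 to 375 RPKM under SD. The heavy chains H2-D1 and H2-K1 went from 24.8 to 73.7 RPKM and from 17.0 to 40.8 RPKM under vehicle, and from 8.65 to 43.0 RPKM and from 8.16 to 44.8 RPKM under SD. T cell genes were scarce, with a summed level of 7 genes between 0.258 and 0.934 RPKM and Cd3e, Cd4, Cd8a and Cd8b1 below 0.1 RPKM in every library. The part of these cells in the level of Serpina3g was not tested.

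Among proteases, the lysosomal cathepsins were abundant and the neutrophil proteases were not. Of 11 listed proteases with a row, 7 passed 1.5-fold upward from WT vehicle to G93A vehicle and 1 was lower, against 14.6% and 5.52% of all names. Under SD 6 were higher and 1 was lower, against 17.3% and 8.05%. Ctsb had 133, 137, 438 and 522 RPKM in WT vehicle, WT + SD, G93A vehicle and lastly G93A + SD. Ctss had 50.4, 44.3, 320 and 421 RPKM, and Klk6, a secreted kallikrein of oligodendrocytes, had 97.9, 101, 220 and 262 RPKM. All 3 of these proteases were higher in both G93A libraries. In contrast, Elane, which encodes neutrophil elastase, and the granzyme genes Gzma and Gzmb were below 0.1 RPKM in every library. Prtn3, a further neutrophil protease, had 0.217, 0.334, 0.182 and 0.450 RPKM in the order given for Ctsb.

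With the high value of Serpina3h in G93A vehicle, the sum of a list of neutrophil genes was also highest in that library. The summed level of its 6 genes was 1.14 RPKM for WT vehicle, 0.833 for WT + SD, 2.50 for G93A vehicle and 0.922 for G93A + SD. Of the 6 genes, 3 had their highest value in G93A vehicle, and Camp, Ltf and Mpo were below 0.1 RPKM in every library. The sum was mostly S100a8 at 0.938 RPKM and S100a9 at 1.28 RPKM, while Camp and Mpo were highest in WT vehicle and Ngp in G93A + SD. The neutrophil protease gene Prtn3 was lowest in G93A vehicle. The sum of the liver list was highest there as well, at 2.31 RPKM, against 1.21, 0.534 and 1.13 RPKM in WT vehicle, WT + SD and G93A + SD. Of its 8 genes, 3 had their highest value in G93A vehicle, and the sum was mostly Apoa2 at 1.16 RPKM and Apoh at 0.940 RPKM. The microglial sum was also highest in G93A vehicle, but only slightly, at 471 against 470.5 RPKM in G93A + SD. The part of these lists in the level of Serpina3h was not tested. With 1 library per condition, the animals of that library and the condition cannot be told apart.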

How the data were processed

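The deposited table holds values in RPKM for 23750 RefSeq transcript rows in 4 libraries, 1 per condition. The unit was inferred from the values and is not named per the file headers. According to the study's methods, the authors read 53 bases of polyA RNA, aligned them with STAR to GRCm38 (mm10) and counted with HTSeq, and the step to RPKM is not stated. The authors' own ratio columns (G93A to WT, and G93A + SD to each of these) were not used.

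The members and lists were chosen with earlier results of these data known. Log2 ratios were computed with a pseudocount of 0.1 RPKM, and a name was called where any row passed 1.5-fold, with Python 3.11.15, numpy 2.4.6 and pandas 2.3.3. In the gene lists the mean of the rows of a name was called instead. Scripts were tested on simulated data, for well expressed genes and changes larger than 1.5-fold. Calls of members at low levels were not covered by that test. Read pairs were estimated from the smallest step of RPKM times transcript length, giving 36.8 M to 38.6 M pairs per library. The genes named are all members, other clade A serpins reaching 0.1 RPKM, the 3 genes of each list with the highest mean, and the 5 names nearest to Serpina3n and to Serpina3h. Genes named beyond this were chosen after their values were seen. Transcripts came from GENCODE M21 and were aligned with Biopython 1.88, and upstream windows came from RefSeq (GRCm38.p6). Alternatives covered pseudocount, scaling, fold, low values and the rows of a gene.

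With 1 library per condition no spread between animals can be given. Endothelial (5 genes), red blood cell (2 genes) and skeletal muscle (4 genes) markers summed to between 44.5 and 59.1, between 11.5 and 23.0, and between 0.302 and 0.561 RPKM.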

Additional observations from a re-analysis of the deposited data

Results flagged for a closer look

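The value of Serpina3n moved in opposite directions with SD in the 2 genotypes. The log2 difference of SD against vehicle was -0.18 in WT mice and 0.71 in G93A mice. With 1 library per condition this difference between genotypes was not tested, and the value in WT mice is within 1.5-fold.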

How the results depend on the processing

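The counts of members past 1.5-fold depended on the treatment of low values and on the fold. In G93A vehicle against WT vehicle the count of 5 became 2 with a pseudocount of 1 RPKM, where 8.44% of all names were higher. It became 3 among rows with a mean of at least 1 RPKM. In G93A + SD against WT + SD the count of 4 became 2 with that minimum. Between the G93A libraries the count of 4 in either direction became 2 with a pseudocount of 1 RPKM, with a 2-fold threshold and with the minimum mean of 1 RPKM, in each case 1 higher and 1 lower. In WT + SD against WT vehicle the count of 0 became 2 with no pseudocount, 1 higher and 1 lower. There 7.34% of all names were higher and 8.76% lower, and Serpina3m and Serpina3f have fewer than 10 estimated pairs. With median-ratio scaling Serpina3c was called lower in G93A vehicle against WT vehicle, at -0.60, giving 5 higher and 1 lower. For the minimum mean, the 2-fold threshold and median-ratio scaling the share of all names is not given. The same holds for a pseudocount of 1 RPKM between the G93A libraries. Those counts thus show only how the result depends on the setting. The summed level of the members in G93A + SD against G93A vehicle reversed from 0.64 to -2.60 on the log2 scale when Serpina3n was left out, which is set by Serpina3h. In sums added after the data were seen it was 0.71 without Serpina3h and 0.45, within 1.5-fold, without both genes. Of 72 ratios of single members under other pseudocounts or scaling, 62 kept their side of 1.5-fold, 10 changed it and 0 changed direction while called. No paired analysis was possible because each condition has 1 library, and for the same reason no replicate could be left out.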
